A study of Mus musculus with 18 samples.

Results

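H3K27me2 peaks that share no base with an H3K36me2 peak were examined in the mouse embryonic stem cell line E14. The members were the rows of the authors' list of replicated H3K27me2 peaks that lay on an autosome, were 2000 bp or longer and had 0 bp covered by the authors' replicated H3K36me2 peaks. There were 6677 members among the 43264 listed peaks (15.4%), or 15.5% of the 43009 autosomal peaks of that length. The remaining 36332 long autosomal peaks had some bases in an H3K36me2 peak and are called the other peaks. Because the untreated H3K27me2 and H3K36me2 libraries chose the members, their levels are given as a description and support nothing. The untreated H3K27me1, H3K27me3 and H3K36me3 libraries and all libraries of the inhibitor experiment were not used in that choice.

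The cells were grown in 2i/LIF medium, which keeps them undifferentiated through LIF and blockers of MEK and GSK3, and the medium held isotope-labelled or unlabelled arginine and lysine. ChIP-seq of untreated cells, without a spike-in, covered 5 marks (H3K27me1, H3K27me2, H3K27me3, H3K36me2 and H3K36me3). Quantitative ChIP-seq of H3K27me3 and of H3K36me2, with Drosophila S2 chromatin added at 0.05% of the total, compared cells given 10 µM EPZ-6438, an inhibitor of the methyltransferase EZH2, with cells given the same volume of its solvent DMSO, both for 7 days. Each of the 9 groups held 2 libraries, 1 and 2. The labels do not say whether the 2 came from separate cultures, so errors and p-values measure only the spread between these libraries, which may be technical.

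EZH2 is the catalytic subunit of Polycomb repressive complex PRC2, which methylates H3K27, and H3K27me2 is the intermediate and most widespread of its products. H3K36me2 is placed mainly by the NSD enzymes, and H3K36 methylation on a histone tail hinders PRC2 on that tail. H3K36me3 is placed by SETD2 over transcribed gene bodies, where H3K27me1 is also found, while H3K27me3 marks Polycomb-silenced genes and their surroundings.

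The longest member, chr8:104922001-105001500 (79500 bp, mm10), held the start sites of 4 genes of the carboxylesterase 2 cluster, whose enzymes hydrolyse esters in liver and intestine. Their promoters are shown because start sites inside members were mostly poor in CpG, as described further on. The sequences are RefSeq's 300 bases around each start on the plus strand of chromosome 8 (GRCm38.p6), written 5′ to 3′ with every CpG in capitals.
Ces2e: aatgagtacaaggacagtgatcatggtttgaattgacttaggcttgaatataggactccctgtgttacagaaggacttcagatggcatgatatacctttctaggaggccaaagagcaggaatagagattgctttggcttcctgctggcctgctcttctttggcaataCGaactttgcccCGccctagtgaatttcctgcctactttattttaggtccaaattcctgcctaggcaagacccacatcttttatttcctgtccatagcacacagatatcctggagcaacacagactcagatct
Ces2f: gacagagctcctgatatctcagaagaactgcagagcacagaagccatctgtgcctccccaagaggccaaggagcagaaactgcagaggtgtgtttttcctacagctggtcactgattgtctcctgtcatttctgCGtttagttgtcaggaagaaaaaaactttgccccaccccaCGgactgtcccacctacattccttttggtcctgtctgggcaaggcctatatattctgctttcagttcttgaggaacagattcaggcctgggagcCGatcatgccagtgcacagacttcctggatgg
Ces2g: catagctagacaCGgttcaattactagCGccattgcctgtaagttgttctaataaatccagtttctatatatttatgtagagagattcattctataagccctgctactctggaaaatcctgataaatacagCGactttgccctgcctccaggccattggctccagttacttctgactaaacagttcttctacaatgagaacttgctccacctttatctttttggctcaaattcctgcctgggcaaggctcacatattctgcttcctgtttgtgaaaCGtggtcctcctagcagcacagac
Ces2h: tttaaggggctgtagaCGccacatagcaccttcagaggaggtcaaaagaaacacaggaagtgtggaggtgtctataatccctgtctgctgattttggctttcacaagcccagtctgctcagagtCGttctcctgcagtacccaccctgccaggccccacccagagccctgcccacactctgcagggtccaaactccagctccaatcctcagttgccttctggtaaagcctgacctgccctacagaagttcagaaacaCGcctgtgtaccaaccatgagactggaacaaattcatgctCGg
The promoters hold 2, 3, 4 and 4 CpG dinucleotides for Ces2e, Ces2f, Ces2g and Ces2h, against a median of 14 in the 20085 protein-coding promoters of the same length. Over this member H3K27me3 stood at 1.51 and 1.57 times the library mean in untreated libraries 1 and 2, H3K27me1 at 1.41 and 1.63, H3K36me3 at 0.547 and 0.523 and H3K36me2 at 0.866 and 0.888. Thus both H3K27 marks lay above the mean of their libraries and both H3K36 marks below it. All levels here are mean reads per 1 kb window inside the peak, divided by the same library's mean over all windows of the autosomes and chromosome X.

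Members, which cover 53.4 Mb, also held 18 of 919 autosomal RefSeq microRNA hairpins, against 470 in the other peaks, which cover 654 Mb. Those of the imprinted Dlk1-Meg3 cluster on chromosome 12 are shown, by 1 arm of each hairpin, with Mir155 and Mir138-1 for contrast, because they lie in members of unlike make-up. These loci were chosen after their values were seen. Each mature sequence is written 5′ to 3′ with the seed (bases 2 to 8) in capitals, from RefSeq (GRCm38.p6).
mmu-miR-770-5p: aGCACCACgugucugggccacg
mmu-miR-341-3p: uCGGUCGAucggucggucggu
mmu-miR-1188-5p: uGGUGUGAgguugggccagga
mmu-miR-370-3p: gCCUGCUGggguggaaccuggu
mmu-miR-155-5p: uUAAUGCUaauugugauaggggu
mmu-miR-138-5p: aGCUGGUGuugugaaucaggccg
The member with Mir770, chr12:109549501-109564500, lies in the long non-coding gene Meg3, and the member with Mir341, Mir1188 and Mir370, chr12:109606501-109619000, in Rian. Both had H3K27me3 and H3K36me3 above the library mean. In the Meg3 member H3K27me3 was 2.06 and 1.80 times the library mean and H3K36me3 7.78 and 8.37 times. In the Rian member H3K27me3 was 3.0 and 3.03 times and H3K36me3 6.99 and 7.78 times. Imprinted genes are expressed from a single allele, and reads of the alleles were not separated here. The member of Mir155, a microRNA of immune cells, overlaps its host gene Mir155hg and the mitochondrial ribosomal protein gene Mrpl39, and had H3K36me3 at 2.23 and 2.43 times the mean and H3K27me3 at 0.863 and 0.741. The member of Mir138-1, a microRNA of neurons, had the reverse, with H3K36me3 at 0.564 and 0.577 and H3K27me3 at 3.26 and 3.06.

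Members were shorter than the other peaks and mostly some distance from H3K36me2 peaks. Their median length was 7000 bp (quartiles 5000 and 10000 bp), against 12000 bp for the other peaks, and together they covered 53.4 Mb, 7.55% of the sequence in the long peaks. The authors' score, whose scale is not given in the sources used here, had a median of 56.8 over members and 121 over the other peaks. The median gap to the nearest H3K36me2 peak was 16000 bp (quartiles 5500 and 46500 bp). At the length threshold, 136 members were exactly 2000 bp long and 87 peaks of 1500 bp just missed it. At the overlap threshold, 17 members adjoined an H3K36me2 peak with a gap of 0 bp and had H3K36me2 at 1.01 and 1.06 times the mean, while 85 peaks with just 500 bp inside one had 1.07 and 1.12 times.

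**Figure D1:**
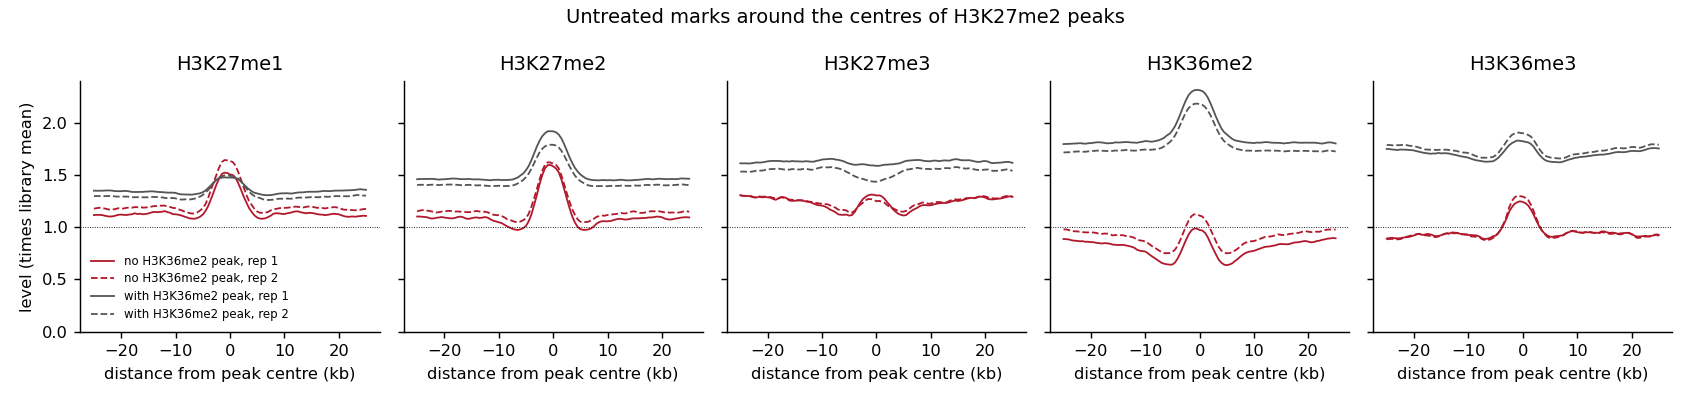
Level of the 5 untreated marks (times the library mean, y) against distance from the peak centre (kb, x) for the 6677 members (red) and the 36332 other peaks (grey), with library 1 solid and library 2 dashed. H3K36me2 over members reaches 0.973 and 1.11 at the centre between flanks of 0.640 and 0.757 at 5 kb, whereas the other peaks reach 2.31 and 2.18.

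Centred on their midpoints, members carried a rise of H3K27me2 from 0.997 and 1.07 times the mean at 5 kb to 1.58 and 1.61 at the centre. H3K36me2 rose at the same place, to 0.973 and 1.11 from 0.640 and 0.757 at 5 kb. In proportion this was about as large as the rise of H3K27me2, though it ended near the library mean. Both marks are those that chose the members. H3K36me3, which the choice of members did not use, went from 0.914 and 0.904 at 5 kb to 1.24 and 1.29 at the centre. H3K27me1 went from 1.11 and 1.17 to 1.5 and 1.63, and H3K27me3 from 1.11 and 1.14 to 1.30 and 1.25. All 5 marks thus rose at the centre. Without an input library, the part of coverage shared by all libraries in these rises was not tested. Around the other peaks H3K27me3 was 1.62 and 1.53 at 5 kb and 1.59 and 1.44 at the centre.

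Averaged over all bases of the members, H3K27me1 differed from its level over the other peaks by less than the spread between libraries, while H3K27me3 and above all H3K36me3 were lower; for H3K27me3 this did not hold in every class of peaks, as given with the classes. H3K27me1 stood at 1.52 ± 0.0780 times the library mean over members (SD, n = 2) and 1.51 ± 0.0153 over the other peaks, a log2 ratio of 0.01 ± 0.09. H3K27me3 stood at 1.40 ± 0.0335 and 1.62 ± 0.108, a log2 ratio of -0.21 ± 0.06. H3K36me3 stood at 1.25 ± 0.0400 over members and 2.15 ± 0.0818 over the other peaks, with log2 ratios of -0.77 and -0.78 in libraries 1 and 2. Against the 15160 other peaks no longer than 10000 bp, the upper quartile of the members, the log2 ratio of H3K36me3 was -0.40 and that of H3K27me3 -0.10. No test was made, since each mark has a single untreated group. For the marks of the rule, H3K27me2 was 1.54 ± 0.0325 and H3K36me2 1.02 ± 0.0970 times the mean over members.

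The members were of unlike kinds, and the other H3K27 peak lists divide them. Of the 6677, 1206 touched neither an H3K27me1 nor an H3K27me3 peak, 2548 touched an H3K27me1 peak only, 1811 an H3K27me3 peak only and 1112 both. In all, 43.8% of members touched an H3K27me3 peak, against 60.0% of the other peaks and 46.1% of the other peaks up to 10000 bp. For H3K27me1 peaks the shares were 54.8%, 60.6% and 47.5%. Since those lists were called on the untreated H3K27me1 and H3K27me3 libraries, the levels of these 2 marks by class only describe the classes. Set against the other peaks of the same class, members had a log2 ratio of H3K27me3 of 0.10 where neither list was touched, 0.13 for H3K27me1 only, -0.24 for H3K27me3 only and 0.20 for both, so it was lower in the H3K27me3-only class and higher in the remaining 3. Here and below, members and other peaks of a class were not matched for length. In the class touching both, the median length was 9500 bp in members and 23500 bp in the other peaks. H3K27me3 peaks covered 68.2% of the member bases in that class and 48.0% of those of the other peaks.

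**Figure D2:**
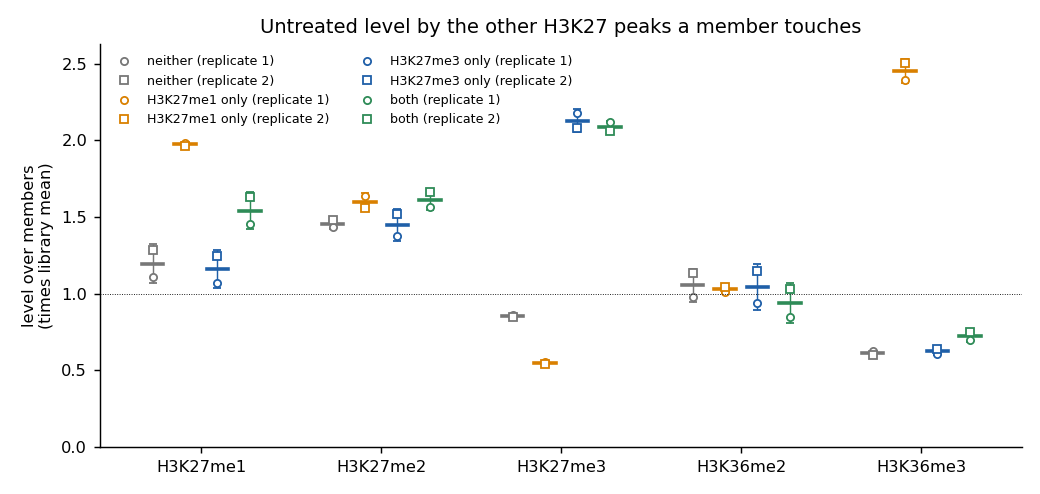
Untreated level over members (times the library mean, y) of each mark (x) by the H3K27 peaks that a member touches. Circles are library 1, squares library 2, bars the mean and whiskers the SD; H3K36me3 is at 2.39 and 2.50 in members that touch only H3K27me1 peaks, and no higher than 0.750 in the other 3 classes.

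H3K36me3, used neither by the rule nor by the classes, was on average highest in a single class. Members touching only an H3K27me1 peak averaged 2.39 and 2.50 times the library mean. Their medians were 0.880 and 0.874, and 45.3% and 46.2% of them lay above the library mean, so most of the class was under it and the average was carried by a minority. Those touching neither averaged 0.623 and 0.602, those touching only H3K27me3 peaks 0.604 and 0.640, and those touching both 0.696 and 0.750, with medians between 0.517 and 0.639. In both untreated libraries, which are the same for all classes, the average of the first class lay above those of the other 3. Against the other peaks of the same class, the log2 ratio of the average H3K36me3 was -0.13 for H3K27me1 only, -0.74 for neither, -0.95 for H3K27me3 only and -1.72 for both, below 0 in all 4. Lengths were not matched, and in the class touching both a start site lay in 7.82% of members and 37.3% of the other peaks. The H3K27me1-only class differed more by its medians, which were 1.80 and 1.77 times the mean in the other peaks of that class. At 2 times the mean or more stood 743 of the 2548 members touching only H3K27me1 peaks (29.2%), against 23 of 1206, 7 of 1811 and 22 of 1112 in the others. Within that class, the 1288 members touching a protein-coding gene averaged 3.75 times the mean and the 1260 outside such genes 0.652 times. In members touching only H3K27me3 peaks the corresponding averages were 0.635 and 0.613. Across the 6677 members, Spearman's rho was 0.38 between H3K27me1 and H3K36me3, -0.40 between H3K27me1 and H3K27me3 and -0.23 between H3K27me3 and H3K36me3, as a description over regions that share libraries and local base composition.

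The 5 members with the highest H3K36me3 all lay inside protein-coding genes. The highest was chr11:120809001-120819500 in Fasn, the fatty acid synthase, at 17.7 and 21.3 times the library mean. It was followed by chr3:88562501-88566000 in Ubqln4, a ubiquilin that shuttles proteins to the proteasome, at 15.6 and 16.3 times. Members in Tln1, which links integrins to actin (chr4:43545501-43550000), and in Prrc2b (chr2:32211001-32221500) had 14.4 and 16.3 times and 13.9 and 16.6 times. In these 4 members H3K27me3 was between 0.108 and 0.369 times the mean, and H3K27me1 between 2.60 and 6.92 times. H3K36me2 over the Fasn member was 0.492 and 0.438 times the mean in untreated cells. It was 0.771 and 1.99 in DMSO libraries 1 and 2 and 0.574 and 2.32 in inhibitor libraries 1 and 2. A single region could thus differ several-fold between libraries. In each of these 4 members library 2 was above library 1 both after DMSO and after the inhibitor. The other of the 5, chr7:24104501-24107500 in the zinc finger gene Zfp180, combined H3K36me3 at 14.7 and 15.7 with H3K27me1 at 8.33 and 7.24 and H3K27me3 at 3.20 and 2.81.

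The Zfp180 member was also among the 5 highest in H3K27me1, and the other 4 of those lay outside protein-coding genes. The first, chr13:12829001-12832000, lay 28922 bp from the start of Prl2c3, a placental prolactin-family hormone, with H3K27me1 at 9.49 and 7.76 times the mean and H3K27me3 at 0.659 and 0.600. The others were chr12:115612501-115622000 (8.11 and 7.40 times), chr4:3050001-3056500 (7.41 and 6.11) and chr3:106247001-106249000 near the chitinase-like gene Chil4 (7.63 and 5.78). The chromosome 12 member lay 518500 bp from the nearest H3K36me2 peak. H3K27me2 in these 4 members ranged from 2.10 to 6.04 times the mean.

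The member with the highest H3K27me3, chr5:33439001-33445000, was 4911 bp from the start of the homeobox gene Nkx1-1, at 11.1 and 11.5 times the library mean. A member in Ky, a gene needed for muscle maintenance (chr9:102541501-102544500), had 8.53 and 7.63 times. Members chr11:118681501-118691000 and chr11:118623001-118644500 lay in Rbfox3, which encodes the neuronal splicing factor NeuN, at 7.58 and 7.60 and at 7.26 and 7.47 times. The fifth, chr1:85242501-85253000, overlapped Gm38510 and C130026I21Rik, at 6.91 and 7.80 times, and also had H3K27me1 at 3.86 and 4.17.

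After the Ces2 region the longest members were chr16:95024501-95081000 (56500 bp), 26805 bp from the start of the potassium channel gene Kcnj6, and chr5:37254501-37301500 (47000 bp), overlapping Crmp1 and Evc. Crmp1 encodes a protein of axon guidance, and Evc a protein of the primary cilium. Then came chr10:3477001-3520000 (43000 bp) near Iyd, an iodide-recycling enzyme of the thyroid, and chr3:105183501-105226000 (42500 bp), where the nearest protein-coding start was 116657 bp away. All 5 touched both H3K27me1 and H3K27me3 peaks. Their H3K27me3 ranged from 1.08 to 3.94 times the mean, with 1.08 and 1.09 near Iyd and 3.94 and 3.36 over Crmp1 and Evc, and their H3K36me3 from 0.385 to 0.985.

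Members were mostly away from gene starts. Protein-coding genes held 43.2% of member bases, against 54.8% for the other peaks, 43.8% for the other peaks up to 10000 bp and 40.0% for the autosomes as a whole. No gene of any kind was touched by 2827 members (42.3%), against 26.6% of the other peaks and 37.5% of those up to 10000 bp. A start site lay in 366 members (5.48%), against 20.0% and 8.13%. By class, the share of bases in protein-coding genes was 53.4% in members touching only H3K27me1 peaks, 41.8% in those touching neither, 38.0% in those touching only H3K27me3 peaks and 35.2% in those touching both.

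Among 25748 genes with a RefSeq promoter entry, 392 (1.52%) started in a member. They were 192 of 16457 protein-coding genes (1.17%) and 200 of 9291 long non-coding RNA genes (2.15%). The 203 protein-coding promoters in members held a median of 3 CpG, and 20.2% held 10 or more. Over all protein-coding promoters the median was 14 and the share 57.9%. In the other peaks they were 12 and 54.6%, and in the other peaks up to 10000 bp 8 and 44.0%.

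Several of the gene families examined had starts in members. Odorant receptors, the chemosensors of the nose, had 29 of 938 starts in members (3.09%), and 35 in the far more numerous other peaks. Cytochrome P450 genes, which oxidise drugs and steroids, had 7 of 77 (Cyp19a1, Cyp2d40, Cyp2r1, Cyp3a11, Cyp3a57, Cyp4b1 and Cyp4f18), and 24 in the other peaks. In members touching an H3K27me3 peak lay 5 of the 7, against 90 of the 192 protein-coding genes that started in members. Serpins, a family of serine protease inhibitors, had 5 of 53 (Serpina16, Serpina1f, Serpina3c, Serpina5 and Serpinb6e), and 18 in the other peaks. Beta-defensins had 2 of 29, vomeronasal receptors 2 of 322, solute carriers 3 of 282, and keratins with keratin-associated proteins (Krtap29-1), UDP-glucuronosyltransferases (Ugt1a9) and Zfp zinc fingers (Zfp708) 1 each of 90, 20 and 325. None of the 22 Hox, 26 Fox, 7 Pax, 13 Sox, 15 Wnt, 68 potassium channel, 22 glutamate or GABA-A receptor, 72 ribosomal protein, 31 bitter taste receptor or 19 killer cell lectin-like receptor genes started in a member. The clustered protocadherins could not be counted, with 0 genes matched. These shares are descriptions. The families hold protein-coding genes only, so they are read against the 1.17% of all protein-coding genes. In families this small a count of 0 is near that share. In the other peaks the share of all protein-coding genes was 32.4%.

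**Figure D3:**
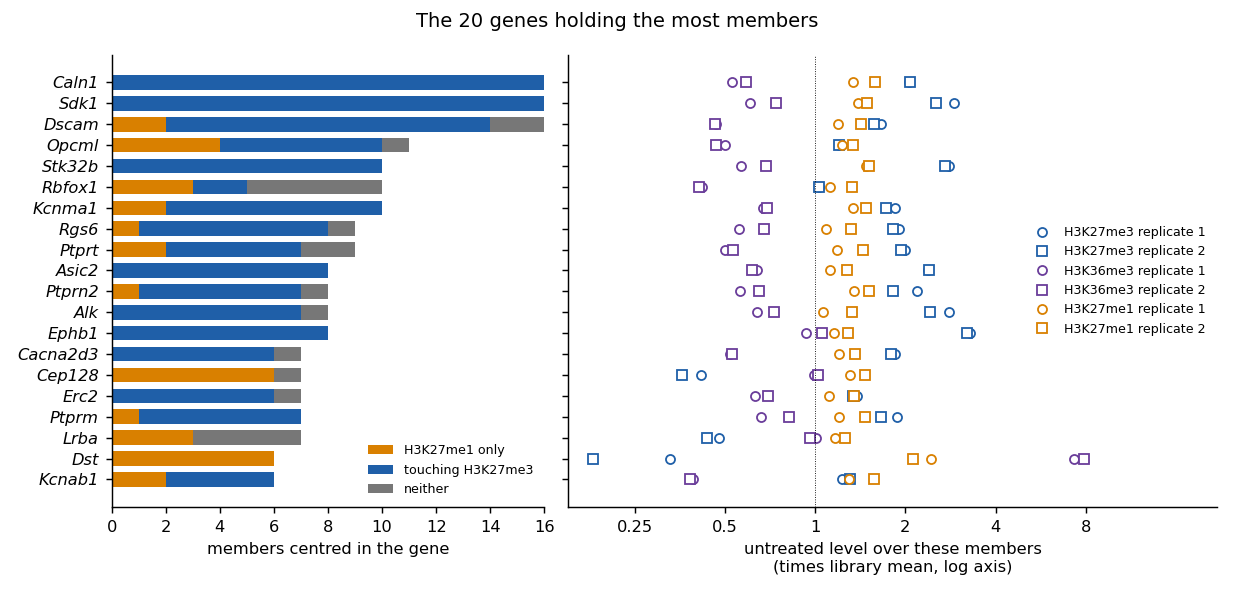
The 20 protein-coding genes with the most members centred in them, ties ordered by the bases members cover. Left, number of members (x) by the peaks they touch; right, untreated level over these members (times the library mean, log axis) for H3K27me3, H3K36me3 and H3K27me1, circles library 1 and squares library 2. In Dst, Cep128 and Lrba H3K27me3 lies under the mean, while in Caln1, Sdk1 and Stk32b it lies above 2 times the mean.

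The midpoint of 2027 members lay in just 1 protein-coding gene of 10 kb or longer, and these members were spread over 1241 such genes, as 13383 of the other peaks were over 5639. Described here are the 7 genes that held 10 or more members and, of the 20 with the most, the 3 in which no member touched an H3K27me3 peak. Caln1, a neuronal calcium-binding protein gene (477 kb), held 16 members that covered 225 kb, all touching an H3K27me3 peak, and only 1 other peak. Sdk1 and Dscam, which encode adhesion molecules of synaptic layers, also held 16 each, the opioid-binding cell adhesion gene Opcml 11 and the kinase gene Stk32b 10, the last with 0 other peaks. The splicing factor gene Rbfox1 and the potassium channel gene Kcnma1 held 10 each. The other peaks numbered 14 in Sdk1, 9 in Dscam, 4 in Opcml, 17 in Rbfox1 and 10 in Kcnma1. The mean H3K27me3 of libraries 1 and 2 over the members was 2.07 times the library mean in Caln1, 2.72 in Sdk1, 1.61 in Dscam, 1.2 in Opcml, 2.76 in Stk32b, 1.03 in Rbfox1 and 1.78 in Kcnma1. H3K36me3 over the same members was 0.559 in Caln1, 0.673 in Sdk1, 0.465 in Dscam, 0.484 in Opcml, 0.626 in Stk32b, 0.415 in Rbfox1 and 0.682 in Kcnma1. Of the genes without a member touching an H3K27me3 peak, Cep128, which encodes a centriole protein, held 7 members (6 touching only H3K27me1 peaks), Lrba, needed for vesicle traffic in immune cells, 7 (3) and Dst, which encodes a cytoskeletal linker, 6 (all 6). Over these members H3K27me3 was 0.387 times the library mean in Cep128, 0.456 in Lrba and 0.255 in Dst, and H3K36me3 1.01 in Cep128, 0.983 in Lrba and 7.58 in Dst, so H3K36me3 was high in Dst only among the 3. The median length of the holding gene was 78.5 kb for members touching only H3K27me1 peaks and 274 kb for those touching only H3K27me3 peaks. Along the gene, from 0 at the start to 1 at the end, their median positions were 0.58 and 0.48.

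Genes that held members were not free of H3K36me2. Of the 2027 members placed in a single gene, 1741 (85.9%) had an H3K36me2 peak elsewhere in that gene. This was below the 92.7% of the other peaks placed in a single gene and the 98.4% of those up to 10000 bp. In the genes of members, H3K36me2 peaks covered 21.2% of the bases on the 5′ side of the member and 27.8% on the 3′ side. For the other peaks the corresponding covers were 50.0% and 60.7%, not counting the bases within the peak itself. The same H3K36me2 list chose the members. By that choice each other peak has bases in an H3K36me2 peak, which may run on past its edge. These contrasts with the other peaks are therefore a description and support nothing. The nearest long H3K27me2 peak was itself a member for 3018 members (45.2%), against 8.62% of the other peaks. The median gap to that nearest peak was 9000 bp for members and 3000 bp for the other peaks. The 2 Mb block with the most members, chr5:132000001-134000000, had 38 members among 56 long peaks.

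Chromosomes differed in how many of their long peaks were members, from 11.1% on chromosome 11 to 24.3% on chromosome 3, with 19.7% on chromosome 16. On chromosome 3 the mean H3K27me2 level was 1.06 and 1.08 times that of the library and the H3K36me2 level 0.948 and 0.980 times. In the quantitative libraries of both marks the levels of chromosomes 3, 5, 14 and 16 differed more between replicate numbers than between treatments. The H3K36me2 level of chromosome 16 was 1.04 and 1.17 in DMSO libraries 1 and 2 and 1.08 and 1.23 in inhibitor libraries 1 and 2, and that of chromosome 3 was 0.924 and 0.839 and then 0.991 and 0.865. Chromosome 5, which holds Caln1, Sdk1, Stk32b and the block with the most members, stood at 1.18 and 1.29 and then 1.16 and 1.31, and chromosome 14 at 0.837 and 0.770 and then 0.854 and 0.762. The H3K27me3 level was 0.942 and 1.06 and then 1.01 and 1.15 on chromosome 16, 1.26 and 1.35 and then 1.32 and 1.47 on chromosome 5, 0.812 and 0.751 and then 0.791 and 0.718 on chromosome 14, and 0.885 and 0.825 and then 0.886 and 0.826 on chromosome 3, with library 2 on the same side of library 1 as for H3K36me2. Their part in the results was not tested beyond leaving these 4 chromosomes out. The H3K36me2 change over members, given further on, was then 0.33 in place of 0.36 on the log2 scale, the change of the H3K36me2 ratio of members to other peaks 0.27 in place of 0.29, and the untreated log2 ratio of H3K36me3 -0.66 in place of -0.77.

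The next question was what became of H3K27me3 in the members when EZH2 was inhibited. On the authors' scale for the quantitative libraries, taken to be set by the spike-in, the mean scaled reads per window over members were 70.0 and 49.4 after DMSO and 0.124 and 0.0930 after the inhibitor. The groups did not overlap, and the log2 change was -9.10 against -9.06 for the genome (exact two-sided permutation p 0.33, which is as low as this design can go). Members touching only H3K27me3 peaks changed by -9.57, those touching both by -9.33, those touching neither by -8.93 and those touching only H3K27me1 peaks by -8.09. All 5804 members with reads in all 4 libraries were called lower by limma at a Benjamini-Hochberg adjusted p under 0.05, as were 100% of all peaks tested, so the call does not set members apart. The remaining members were not tested for want of reads in at least 1 library. The inhibitor libraries were shallow, with a median of 3 and 6 reads per member against 59 and 74 after DMSO, so single members were imprecise. The size of the spike-in scale change rests on the authors' constants, since reads per member fell far less than scaled values did.

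**Figure D4:**
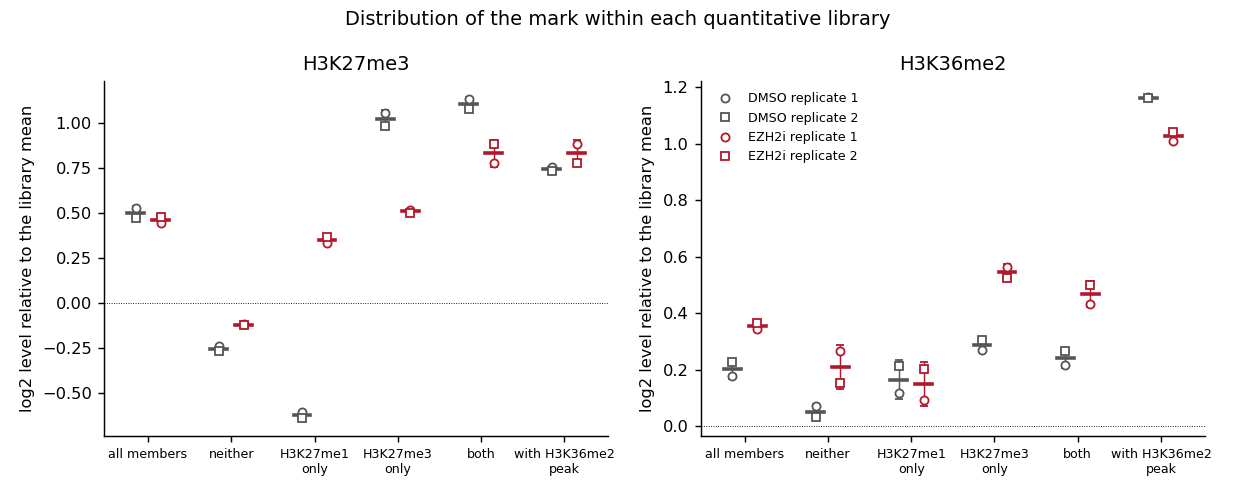
Log2 level relative to the library's own mean (y) of H3K27me3 (left) and H3K36me2 (right) over all members, the 4 classes of members and the other peaks (x). Grey is DMSO and red the inhibitor, circles library 1, squares library 2, bars the mean and whiskers the SD; H3K27me3 in members touching only H3K27me1 peaks goes from -0.62 to 0.35.

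The reads that were left in the H3K27me3 libraries had another distribution over the members. The series holds no input library, so reads of the mark and background reads were not told apart. Relative to each library's own mean, all members together changed by -0.04 on the log2 scale (exact permutation p 0.667) and their libraries overlapped. Members touching only H3K27me1 peaks, low in H3K27me3 to begin with, went from log2 levels of -0.61 and -0.64 after DMSO to 0.33 and 0.36 after the inhibitor, a change of 0.97. Members touching only H3K27me3 peaks went from 1.05 and 0.98 to 0.51 and 0.50, a change of -0.51. The untreated H3K27me3 peak list set these classes, so they differed in this mark from the start. Members touching both changed by -0.27 and those touching neither by 0.13. In these 4 classes the DMSO and inhibitor libraries did not overlap, each with an exact permutation p of 0.33. The log2 ratio of the H3K27me1-only to the H3K27me3-only class was -1.64 after DMSO and -0.16 after the inhibitor. The other peaks changed by 1.22 where they touched only H3K27me1 peaks, -0.49 for H3K27me3 only, 0.08 for both and 0.34 for neither. The sign was thus that of the members in 3 classes and the opposite in the class touching both, where the other peaks were much longer than the members. The log2 ratio of members to the other peaks went from -0.23 and -0.26 to -0.44 and -0.30, a change of -0.12 without overlap (exact permutation p 0.33), which was -0.05 without inhibitor library 1.

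On the library-mean scale limma called 423 members (7.29% of those tested) higher and 77 (1.33%) lower at an adjusted p under 0.05, against a background of 8.04% higher and 0.886% lower over the 40308 peaks tested. Of the higher calls, 402 were among the 2131 tested members touching only H3K27me1 peaks, where 8 were lower. Of the lower calls, 53 were among the 1681 tested members touching only H3K27me3 peaks, where 0 were higher. Counted without a test, the relative level was higher in each inhibitor library than in either DMSO library for 1307 of the 2548 members touching only H3K27me1 peaks (51.3%), against 34.5% of all long peaks and 69.8% of the other peaks of that class, and lower in this sense for 931 of the 1811 touching only H3K27me3 peaks (51.4%), against 27.8% and 55.0%. By limma, the other peaks of these classes were called higher in 24.7% of those tested for H3K27me1 only, against 18.9% of members, and lower in 2.34% for H3K27me3 only, against 3.15% of members. These differences in share were not tested, and for H3K27me3 only the limma calls and the counts without a test differ in sign. Over all 6677 members, 1835 (27.5%) were higher and 1863 (27.9%) lower in this sense. The limma counts leave out members without reads in a library, in each case an inhibitor library: 11.0% of members had none in inhibitor library 1 and 2.83% in inhibitor library 2. Among the regions named above, limma called those in Fasn (log2 change 3.24, adjusted p 0.0386), Ubqln4 (3.36, adjusted p 0.0482), Tln1 (1.90, adjusted p 0.0386) and Prrc2b (2.57, adjusted p 0.0399) and the region near Prl2c3 (2.52, adjusted p 0.0478) higher. These were relative values: on the spike-in scale each of these members had less H3K27me3 after the inhibitor than after DMSO. Inhibitor libraries 1 and 2 held few reads in them, 24 and 22 in Fasn, 7 and 5 in Ubqln4 and 3 and 7 in Tln1. The Prrc2b member had 17 and 19, and the region near Prl2c3 5 and 23.

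H3K36me2 was then compared in the same way, in libraries that the choice of members did not use. On the spike-in scale the mean scaled reads per window over members were 366 and 249 after DMSO and 513 and 292 after the inhibitor. The groups overlapped, and the log2 change was 0.36 (exact permutation p 0.667), against 0.20 for the genome and 0.07 for the other peaks. Leaving out 1 library at a time gave -0.05 without inhibitor library 1, 0.76 without inhibitor library 2, 0.63 without DMSO library 1 and 0.08 without DMSO library 2. Within a library the spread was smaller: relative to the library mean, members went from log2 levels of 0.18 and 0.23 to 0.35 and 0.36, a change of 0.15, while the other peaks went from 1.16 and 1.16 to 1.01 and 1.04. The log2 ratio of members to other peaks went from -0.99 and -0.94 to -0.66 and -0.68, a change of 0.29 without overlap (exact permutation p 0.33), with an SD of 0.04 over the DMSO and 0.01 over the inhibitor libraries. The ratio changed by 0.26 against the other peaks of up to 10000 bp. In the untreated libraries, which chose the members, the log2 ratio of members to other peaks was -1.36 and -1.06. These 2 libraries of 1 group thus differed about as much as the DMSO and inhibitor groups did.

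By class, again relative to the library mean, members touching only H3K27me3 peaks changed by 0.26, those touching both by 0.23 and those touching neither by 0.16, each without overlap between the groups (exact permutation p 0.33). Members touching only H3K27me1 peaks changed by -0.02, and their libraries overlapped. The other peaks of these classes changed by -0.06, -0.15, -0.10 and -0.18, in the same order. The log2 level of the H3K27me1-only class relative to the H3K27me3-only class changed by -0.27, from -0.15 and -0.09 to -0.47 and -0.32 (exact permutation p 0.33). In the genes with 10 or more members the mean H3K36me2 level went from 1.30 to 1.74 times the library mean in Caln1, from 1.62 to 2.04 in Sdk1, from 1.12 to 1.45 in Dscam, from 0.909 to 1.25 in Opcml, from 1.2 to 1.45 in Stk32b, from 1.08 to 1.29 in Rbfox1 and from 1.25 to 1.52 in Kcnma1. The DMSO and inhibitor libraries overlapped in Sdk1 (1.36 and 1.87 against 1.71 and 2.37) and not in the other 6. In the 3 without a member touching an H3K27me3 peak, where they overlapped in each, it went from 1.00 to 1.06 in Cep128, from 0.915 to 0.908 in Lrba and from 1.29 to 1.15 in Dst. In Caln1 the libraries were 1.15 and 1.46 after DMSO and 1.52 and 1.96 after the inhibitor, so single genes varied between libraries of the same group. There library 2 was the higher in both groups.

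No single member was called for H3K36me2 when the libraries were compared as unpaired groups. This call rests on not taking libraries of the same number as pairs, which the labels do not settle. Differences between libraries 1 and 2 after DMSO and after the inhibitor correlated at 0.55 across the 43009 long peaks for H3K36me2. The fit that takes them as pairs did call members and is given with the processing alternatives. In the unpaired fit limma called 0 of 6677 members, with 26 at an unadjusted p under 0.05, and 0% of all peaks. For limma-voom, run on whole reads recovered from the tracks, the counts were 0 called and 22 below 0.05 before adjustment. On the library-mean scale limma also called 0, with 2323 members below 0.05 before adjustment. The counts before adjustment stand here without their direction and without the same share over all peaks, so they do not set members apart. Counted without a test, the relative level was higher in both inhibitor libraries than in both DMSO libraries in 3206 members (48.0%), against 15.2% of all long peaks, and lower in 667 (9.99%), against 42.8%. On the spike-in scale 785 members (11.8%) were higher in this sense, against a background of 2.29%, and 52 (0.779%) lower, against 0.207%. By class, the relative level was higher in 1252 of the 1811 members touching only H3K27me3 peaks (69.1%), 674 of the 1112 touching both (60.6%), 566 of the 1206 touching neither (46.9%) and 714 of the 2548 touching only H3K27me1 peaks (28.0%). In the other peaks of these classes the shares were 17.5%, 8.26%, 8.83% and 2.18%, in the same order. Of the 5 longest members, the 1 on chromosome 3 went from 1.2 and 1.14 to 1.81 and 1.75 times the library mean (log2 change 0.60 ± 0.08, SE, limma adjusted p 0.213). The Ces2 member went from 0.972 and 0.906 to 1.26 and 1.11 (log2 change 0.33). The changes of the other 3 were 0.15 on chromosome 16, 0.01 over Crmp1 and Evc and -0.06 near Iyd, and in each of these the libraries of the 2 groups overlapped.

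**Figure D5:**
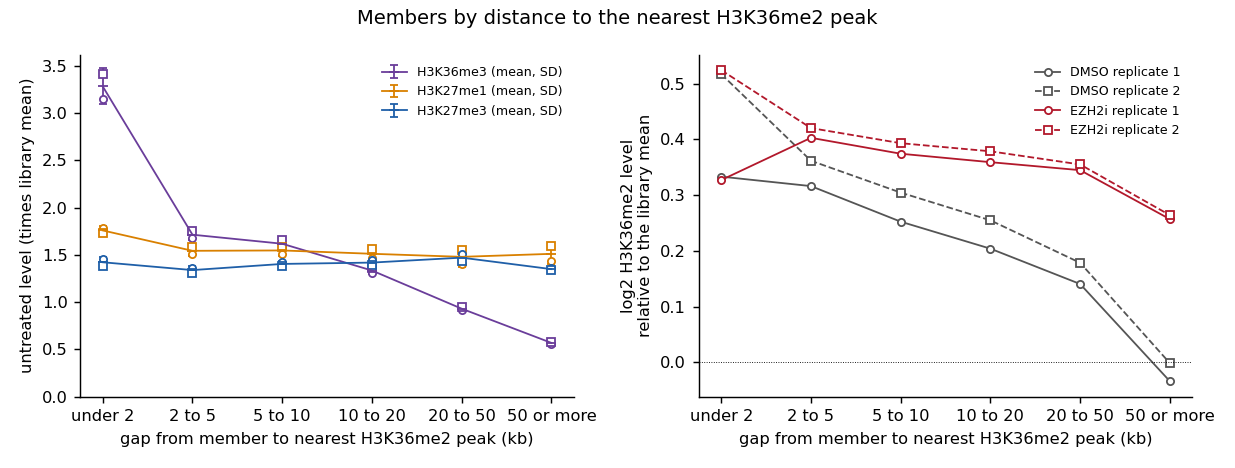
Members grouped by the gap to the nearest peak of the H3K36me2 list that chose them (kb, x). Left, untreated level (times the library mean) with mean and SD, circles library 1 and squares library 2; right, log2 H3K36me2 level relative to the library mean in the DMSO (grey) and inhibitor (red) libraries, where the curves part as the gap grows.

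Both H3K36 marks varied with the distance to the nearest H3K36me2 peak. That distance was measured to the list that chose the members, so a fall of H3K36me2 with distance was in part built into the groups. The H3K36me2 values by distance are therefore a description. H3K36me3 went from 3.28 ± 0.190 times the mean in the 162 members closer than 2000 bp (SD, n = 2) through 1.71 ± 0.0520 at 2000 to 5000 bp and 1.33 ± 0.0409 at 10000 to 20000 bp to 0.570 ± 0.0189 in the 1566 members at 50000 bp or more. An H3K27me3 peak was touched by 41.4% of members in the nearest group, 43.8% to 47.2% in the groups between and 38.0% in the farthest. H3K36me2 after DMSO was 1.26 and 1.43 times the mean in the nearest group and 0.977 and 0.999 in the farthest. After the inhibitor it was 1.25 and 1.44 in the nearest and 1.2 and 1.2 in the farthest. The log2 relative change was 0.00 under 2000 bp, then 0.07, 0.11, 0.14 and 0.19, and 0.28 at 50000 bp or more. The DMSO and inhibitor libraries overlapped in the nearest group but not in the farthest. The change was larger where the level after DMSO was lower, and distance and starting level were not separated.

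The labelled cell type was checked on H3K36me3 over gene bodies. The 8 stem cell genes on the marker list, such as Pou5f1, Nanog and Tfcp2l1, stood at 3.97 to 8.52 times the library mean, whereas 11 of 12 markers of fibroblasts, endoderm, neurons and muscle lay at 0.452 to 2.51 times. The exception was the neuronal tubulin gene Tubb3, at 4.74 and 5.06 times.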

How the data were processed

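ChIP-seq of 5 histone marks in E14 cells gave 18 libraries, none of them an input. Per the submitters' processing notes, the tools were Trim Galore 0.4.2, Bowtie2 2.2.6.2 and SICER, with builds mm10 and dm3; which role each had is not stated. The authors deposited a track per library of log2 values in 1 kb windows every 500 bp. Undoing the log2 and taking off 1 left whole reads multiplied by a constant of that library, as judged from the values (100% whole at a tolerance of 0.02 reads). The constants of the quantitative libraries were taken to come from the spike-in; how they were derived is not given in the sources used here. The authors deposited a score for each peak of their replicated lists, on an unstated scale, used here only to describe or filter peaks. The H3K27me1, H3K27me2, H3K27me3 and H3K36me2 lists were used. Reads summed over every second window, so that no base is counted again, were 21.6 to 112 M per library, except 0.992 and 1.78 M for H3K27me3 after the inhibitor. Levels are linear means over windows wholly inside a peak.

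Members, classes and gene lists were chosen with earlier results of these data known. Groups came from the labels. Peaks were compared with limma 3.58.1 (R 4.3.3) on log2(mean scaled reads per window + 1), a scale that understates changes of low peaks, over long autosomal peaks with reads in all 4 libraries of a mark, with Benjamini-Hochberg adjustment. Single values were compared with an exact two-sided permutation test. The fit was also run on simulated counts. These held neither the spike-in constants nor the shifts between replicate numbers seen here, so they do not show how the fit performs on these data. Named regions were the 5 longest members and the 5 highest in H3K27me3, H3K27me1 and H3K36me3, with the protein-coding genes they overlap or the nearest start. A further rule for members called for H3K36me2 found none. Replicates differed by more than sampling noise in all 9 groups (chi-square per degree of freedom 1.73 to 7.86). Gene positions and sequences were RefSeq GRCm38.p6. No genome sequence was used. Alternatives were the scale, pseudocount, filter, limma-voom, windows on a 1 kb grid, medians, other limits of length, gap, score and overlap, left-out replicates and the replicate block.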

Additional observations from a re-analysis of the deposited data

Results flagged for a closer look

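Relative to the library mean, H3K27me3 moved in opposite directions in different classes of members, with every inhibitor library above both DMSO libraries in some classes and below both in others. The permutation test of each of these differences between classes gave an exact p of 0.33, the lowest value for 2 against 2 libraries; beyond that the differences were not tested. Members touching only H3K27me1 peaks and members touching only H3K27me3 peaks changed by 0.97 and -0.51 on the log2 scale, a difference of 1.48. The untreated H3K27me3 peak list set these classes, so they differed in H3K27me3 beforehand. After DMSO they stood at 0.649 and 2.03 times the library mean, in the same order. The other peaks of these classes changed by 1.22 and -0.49, so the opposite directions are not particular to members. Members touching only H3K27me1 peaks differed from members touching both by 1.24. Members touching neither differed from those touching only H3K27me3 peaks by 0.65 and from those touching both by 0.41. The inhibitor libraries held a median of 3 and 6 reads per member, and the part of this low depth in the differences was not tested.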

How the results depend on the processing

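On the library-mean scale the H3K27me3 change over members, -9.10 on the spike-in scale, was -0.038 with overlapping libraries, and that of H3K36me2, 0.36 on the spike-in scale, was 0.15. Under the other alternatives run, the H3K27me3 change and both changes of the member-to-other ratio kept their direction. The H3K36me2 change over members on the spike-in scale ranged from -0.051 without inhibitor replicate 1 to 0.76 without inhibitor replicate 2. Leave-one-out ranges were -9.35 to -8.85 for H3K27me3 over members, -0.19 to -0.054 for its member-to-other ratio, 0.26 to 0.31 for that of H3K36me2 and 5804 to 6488 members called for H3K27me3. For H3K27me3 the library-mean scale called 500 members in place of 5804, and 576 with the replicate block (514 higher, 62 lower, 8.86% and 1.07%; background 8.11% and 0.61%). Replicate numbers are shared between the groups, but the labels do not say whether they pair the libraries, and there are only 2 pairs. Deviations of same-numbered libraries correlated across 43009 peaks at 0.55 for H3K36me2 and 0.026 for H3K27me3. With the replicate block limma called 2780 members for H3K36me2 in place of 0 (2762 higher, 18 lower; background 9.35% and 0.0814%), and with the block on the library-mean scale 2249 (1887 higher, 362 lower; background 5.71% and 10.4%).

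The untreated log2 ratio of H3K36me3 to the other peaks was -1.06 with medians, -0.70 with other peaks no longer than the longest member, -0.79 for members of 5000 bp or longer, -1.0 for gaps of 5000 bp or more, -0.65 for scores at or above the member median, -0.40 against other peaks up to the members' upper length quartile and -0.70 without chromosomes 3 and 16 or -0.66 without 3, 5, 14 and 16. That of H3K27me3 was -0.15 for the higher scores and -0.10 against the shorter other peaks. That of H3K27me1, 0.01, was -0.021 for members of 5000 bp or longer and -0.0031 for the wider gap, and ranged from -0.053 to 0.072 over single replicates, all within the spread between libraries. The share of members touching an H3K27me3 peak was 33.8% (other peaks 38.8%) when it had to cover at least 0.5 of the peak, 49.7% (62.4%) for peaks of 5000 bp or longer and 28.1% (47.4%) with the higher-scoring H3K27me3 peaks. For H3K27me1 these were 47.6% (40.8%), 53.2% (61.3%) and 27.4% (42.3%), so with cover of at least 0.5, as against the shorter other peaks, members were above the other peaks instead of below. The comparisons with shorter other peaks, without chromosomes and with scale and block together were chosen after seeing the data. Causes of these differences were not tested. The shallow H3K27me3 inhibitor libraries limit what single members can show.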
